A study of Mus musculus with 20 samples.

Results

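Of the 19938 genes represented on the arrays, 10 were followed here: Pcdh15, Zim1, Mdm1, Piga, Sox4, Usp51, Gria2, Hapln1, Rit2 and Kctd12b. They were chosen for their fall at day 12.5 of pregnancy in islets, in islet grafts or in both. Each was read from its probe set with a single gene symbol and the highest mean over the 20 arrays. The values that chose them are the pregnancy changes themselves, so those changes are described without a test, and only the comparisons of site and of donor sex, which the choice did not use, were tested for these genes.

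The study asked whether male islets can take on the mRNA changes of pregnancy. Total RNA of C57BL/6J mouse islets was measured in 6 groups. Islets taken from the pancreas came from females at pregnancy day 12.5 (islets P12.5, 4 arrays) or from non-pregnant females (islets NP, 4 arrays). Grafts were islets of female or male donors placed under the kidney capsule of young adult female hosts made diabetic with streptozotocin, of which only those whose blood glucose was restored were mated. They were taken from pregnant hosts (female graft P12.5 and male graft P12.5, 3 arrays each) and from non-pregnant hosts (female graft NP and male graft NP, 3 arrays each). A male graft in a pregnant host therefore held male islet cells in a female body, together with host tissue around the graft. The islet arrays are marked as a reanalysis of earlier arrays, so site, the treatment of the hosts and the series of arrays cannot be told apart. The labels call the replicates biological but name no animals, so a p-value here reflects only how far these samples vary. The labels name no gene deletion and no transgene.

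In pregnancy the beta cells of the islet receive placental lactogen and prolactin through the prolactin receptor, which signals through JAK2 and STAT5. The cells divide, release more insulin and begin to make serotonin. The 10 genes described here share no pathway and range from a cell adhesion protein of hair cells to an imprinted zinc finger gene, a regulator of centrioles, a glutamate receptor subunit and a neuronal GTPase. In whole islets or grafts, fewer cells of a type and less RNA per cell cannot be told apart.

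Beta cell markers stood between 10.4 and 11.1 as a list mean on every array, on the log2 scale of the deposited values (11 of 12 listed genes measured). Grafts also held host tissue. The kidney list (17 of 18 measured) averaged 5.88 to 7.20 in female grafts P12.5 and 7.84 to 8.54 in female grafts NP, and 6.39 to 8.24 in male grafts P12.5 and 6.39 to 8.18 in male grafts NP, against 5.38 to 5.52 in all islets. The stromal list (10 of 10 measured) averaged 8.32 to 10.1 in grafts and 6.34 to 6.87 in islets, and the acinar list (10 of 12 measured) 5.51 to 5.86 in grafts and 8.04 to 9.90 in islets. Array 3 of the P12.5 grafts stood apart in both donor sexes: it had the highest stromal mean of its group (9.65 female, 10.1 male), the lowest beta cell mean (10.7 female, 10.4 male) and the lowest mean over the 10 genes (6.35 female, 6.34 male). The part of these cells in the values of the 10 genes was not tested, and values without array 3 of both donor sexes are given with the graft results.

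The 10 genes lay on 6 chromosomes. Piga, Usp51 and Kctd12b were on the X chromosome, 3 of 10, where 3.72% of the 19856 array genes with a RefSeq position lie. Usp51 (chrX:153006469-153011364) and Kctd12b (chrX:153685154-153696386) were 673.8 kb apart, with 6 other measured genes starting between them. Gene sizes ran from 4.8 kb for Sox4 (chr13:28948919-28953699) to 1553.6 kb for Pcdh15 (chr10:73096277-74649831). Positions and the promoter windows below were taken from RefSeq on GRCm38.p6.

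Promoter windows of 300 bases, 250 before and 50 after an annotated start, were found for 8 of the 10 genes, all but Rit2 and Kctd12b. The bases before the start are printed for 1 gene of each pattern described below: Pcdh15, lower at both sites, Sox4, lower mainly in islets, and Hapln1, lower mainly in grafts. Capitals mark CG dinucleotides and, in Pcdh15, the TATAAA box. The Pcdh15 stretch (chr10:73821617-73821866, plus strand) lies before a start inside the long gene, the Sox4 stretch (chr13:28953700-28953949, minus strand) and the Hapln1 stretch (chr13:89540386-89540528, plus strand) lie before the gene. For Hapln1, whose window is set by a start inside the gene, only the bases ahead of the first base of the gene are shown.
Pcdh15: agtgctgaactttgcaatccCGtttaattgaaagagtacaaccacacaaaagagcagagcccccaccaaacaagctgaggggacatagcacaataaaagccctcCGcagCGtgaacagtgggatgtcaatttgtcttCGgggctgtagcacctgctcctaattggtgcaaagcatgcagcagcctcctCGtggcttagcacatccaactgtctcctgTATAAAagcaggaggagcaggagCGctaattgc
Sox4: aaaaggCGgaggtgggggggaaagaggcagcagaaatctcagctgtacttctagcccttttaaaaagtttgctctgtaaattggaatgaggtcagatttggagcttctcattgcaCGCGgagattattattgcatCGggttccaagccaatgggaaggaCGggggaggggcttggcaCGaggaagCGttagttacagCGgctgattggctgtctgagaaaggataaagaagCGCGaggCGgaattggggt
Hapln1: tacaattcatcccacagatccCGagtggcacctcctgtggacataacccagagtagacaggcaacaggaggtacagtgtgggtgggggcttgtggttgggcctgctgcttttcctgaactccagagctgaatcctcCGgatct
The 3 stretches differ in their CG count, with 6 in the 250 bases of Pcdh15, 11 in the 250 bases of Sox4 and 2 in the 143 bases of Hapln1. Over the full windows the CG count ran from 3 (Hapln1) to 32 (Mdm1) with a median of 16, against a median of 7 over all 32851 windows of the table. Motifs were searched on both strands. TTCNNNGAA, the palindrome bound by STAT5, was in 0 of the 8 windows and in 8.30% of all windows. AGAACA, 1 arm of the inverted repeat bound by the glucocorticoid and progesterone receptors, was in 0 of 8 and in 18.97% of all, and TGACGTCA, the cyclic AMP response element, was in 0 of 8 and in 1.79% of all. TATAAA was in 1 of 8, Pcdh15, from base -33 to -28 before its start, and in 13.6% of all windows. These counts describe letters in short windows and say nothing of binding.

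With pregnancy, all 10 genes were lower on average in islets, in grafts and in the grafts of each donor sex, as the choice required for at least 1 site. In islets the P12.5 and NP arrays did not overlap for 7 of the 10 genes, all but Hapln1, Rit2 and Kctd12b, and for 1.97% of all genes every P12.5 array was below every NP array. There, 0.0903% of all genes were called lower, that is 18 genes at an adjusted p under 0.05 (limma) and a fold of at least 1.5, and 0.908% were called higher. In grafts of both donor sexes the 6 P12.5 arrays did not overlap the 6 NP arrays for 5 of the 10 genes, Pcdh15, Zim1, Mdm1, Gria2 and Hapln1, and for 1.91% of all genes every P12.5 array was below every NP array. There, 1.19% of all genes were called lower and 0.687% higher. Since the choice used these contrasts, nothing is read from the 2 counts. The median change of the 10 genes, P12.5 minus NP on the log2 scale, was -0.88 in islets and -1.06 in grafts, against 0 and 0.02 over all genes. The change in islets and the change in grafts differed from gene to gene, and the genes are given below by where the fall was seen. The difference between sites was not tested, because the choice rested on both.

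**Figure D1:**
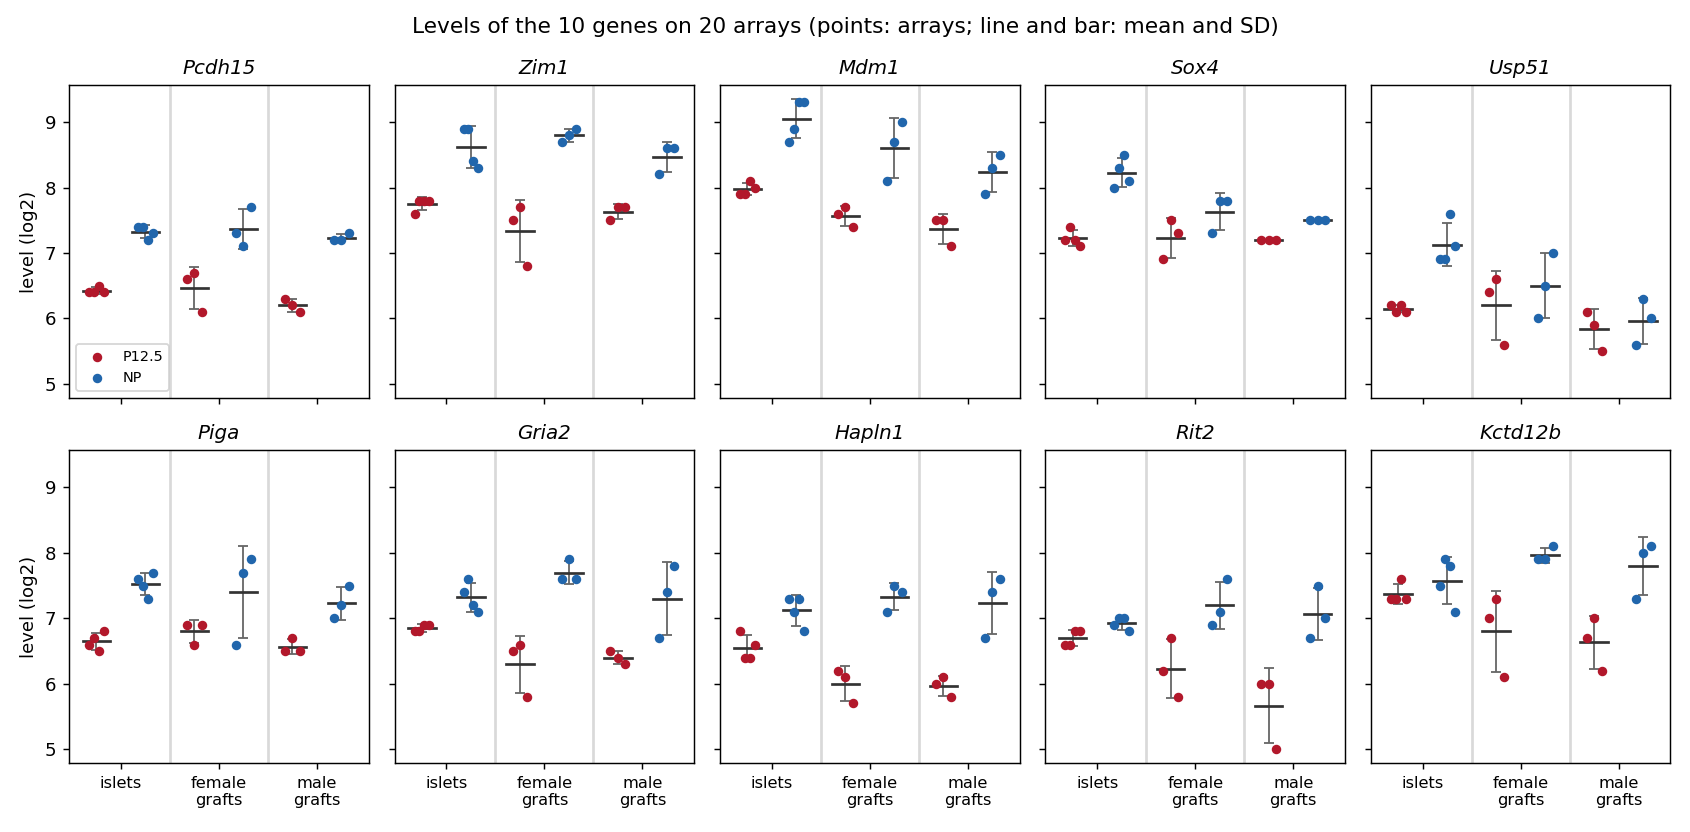
Level of each gene on each array (y axis, log2 of the deposited expression value) in islets, female grafts and male grafts, with P12.5 arrays in red to the left of NP arrays in blue. Points are arrays, lines are group means and bars are SD (n = 4 for islets, 3 for grafts). Pcdh15, Zim1 and Mdm1 were lower at P12.5 in all 3 settings, Sox4 and Usp51 mostly in islets, and Gria2, Hapln1, Rit2 and Kctd12b mostly in grafts.

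Pcdh15, Zim1 and Mdm1 were lower at P12.5 at both sites and in grafts of both donor sexes. Pcdh15 encodes protocadherin 15, which pairs with cadherin 23 to form the tip link that joins the stereocilia of hair cells in the inner ear. In islets it stood at 6.4, 6.4, 6.5 and 6.4 at P12.5, against 7.4, 7.4, 7.2 and 7.3 in NP. Female grafts had 6.6, 6.7 and 6.1 at P12.5, against 7.3, 7.1 and 7.7 in NP. Male grafts had 6.3, 6.2 and 6.1 at P12.5, against 7.2, 7.2 and 7.3 in NP. No P12.5 array at either site reached the lowest NP array. The changes were -0.90 ± 0.07 in islets, -0.90 ± 0.18 in female grafts and -1.03 ± 0.18 in male grafts (log2, SE of the fit). Its 3 P12.5 groups were the 3 lowest, with means of 6.20 to 6.47, and its 3 NP groups, at 7.23 to 7.37, did not differ among themselves beyond their SD. A second, dimmer probe set of Pcdh15 did not follow it: that probe set ranged from 6.0 to 6.5 over the 20 arrays and differed by -0.12 in islets, 0.13 in female grafts and 0.23 in male grafts, so that the mean of both probe sets gave -0.51 in islets and -0.39 in grafts. Which transcripts each probe set reads is not given in the sources used here.

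The partners of Pcdh15 were tested, since they had no part in the choice. Of the tip link genes 9 of 11 were measured and of the other protocadherins 11 of 11, and 0 were called in islets or grafts in either direction. Cdh23, the cadherin that completes the tip link, averaged 5.35 in islets P12.5 and 5.48 in islets NP (adjusted p = 0.729, limma). In grafts Cdh23 averaged 5.35 at P12.5 and 5.07 in NP, a difference of 0.28 ± 0.07 that passed the test (adjusted p = 0.0255, limma) and lay under the fold of 1.5. Median changes were 0.03 in islets and 0.03 in grafts for the tip link list and 0 and 0.08 for the protocadherins, against 0 and 0.02 over all genes.

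Zim1 encodes a zinc finger protein of the imprinted Peg3 domain, where in mouse only the maternal copy of Zim1 is active. It lay at chr7:6674444-6696540. The islet arrays read 7.6, 7.8, 7.8 and 7.8 at P12.5, against 8.9, 8.9, 8.4 and 8.3 in NP. Zim1 in female grafts was 7.5, 7.7 and 6.8 at P12.5, against 8.7, 8.8 and 8.9 in NP. In male grafts it was 7.5, 7.7 and 7.7 at P12.5, against 8.2, 8.6 and 8.6 in NP. Every P12.5 array was below every NP array, across sites and donor sexes. The fall was largest in female grafts, -1.47 ± 0.20, where the 6.8 of array 3 was the lowest of all; without it the change was -1.20. The changes in islets (-0.88 ± 0.15) and in male grafts (-0.83 ± 0.20) were close to each other.

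The neighbours of Zim1 in the domain, Peg3 and Usp29, are active from the paternal copy. Peg3, a zinc finger gene, averaged 11 in islets P12.5 and 11.3 in islets NP, a difference of -0.30 ± 0.07 (adjusted p = 0.107, limma). In grafts Peg3 averaged 10.6 at P12.5 and 11 in NP, and the difference of -0.38 ± 0.11 passed the test (adjusted p = 0.0387, limma) but not the fold of 1.5. Usp29 differed by -0.30 ± 0.10 in islets (adjusted p = 0.279, limma) and by -0.52 ± 0.16 in grafts (adjusted p = 0.0587, limma). Of the 30 listed imprinted genes 23 were measured, with a median of -0.10 in islets and 0 in grafts. One was called: Peg10, a retrotransposon-derived gene needed in the placenta, averaged 7.62 in grafts P12.5 and 6.87 in grafts NP and was higher by 0.75 ± 0.17 (adjusted p = 0.0189, limma). In islets Peg10 averaged 7.83 at P12.5 and 7.73 in NP (adjusted p = 0.852, limma).

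Mdm1 encodes a protein that binds microtubules and holds back the duplication of centrioles. It had the largest change of the 10 genes in islets. There it read 7.9, 7.9, 8.1 and 8.0 at P12.5, against 8.7, 8.9, 9.3 and 9.3 in NP. Female grafts read 7.6, 7.7 and 7.4 at P12.5, against 8.1, 8.7 and 9.0 in NP. Male grafts read 7.5, 7.5 and 7.1 at P12.5, against 7.9, 8.3 and 8.5 in NP. The groups did not overlap within any setting, and the NP values spread more widely than those at P12.5. The changes were -1.07 ± 0.14 in islets, -1.03 ± 0.23 in female grafts and -0.87 ± 0.23 in male grafts. In both states the order of the means was male grafts, female grafts, islets, from low to high, and Mdm1 is taken up again under site below. Of the 18 genes of centriole assembly all 18 were measured and 0 were called in either contrast. Plk4, the kinase that starts centriole duplication, averaged 5.05 in islets P12.5 and 4.93 in islets NP (adjusted p = 0.729, limma), and in grafts 5.18 at P12.5 and 4.93 in NP (adjusted p = 0.0991, limma).

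Piga was lower in islets and, less evenly, in grafts. It encodes the catalytic subunit of the enzyme that makes the first step of the GPI anchor, the lipid that holds many proteins on the cell surface, and lies on the X chromosome (chrX:164419780-164433916). Islets had 6.6, 6.7, 6.5 and 6.8 at P12.5, against 7.6, 7.5, 7.3 and 7.7 in NP. Piga in female grafts stood at 6.9, 6.6 and 6.9 at P12.5, against 6.6, 7.7 and 7.9 in NP. In male grafts it stood at 6.5, 6.7 and 6.5 at P12.5, against 7.0, 7.2 and 7.5 in NP. The female graft groups overlapped through NP array 1, at 6.6, while islets and male grafts were apart. The changes were -0.88 ± 0.10 in islets, -0.60 ± 0.28 in female grafts and -0.67 ± 0.28 in male grafts, and the female graft value rested on single arrays, with -1.0 without NP array 1 and -0.35 without NP array 3.

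The other GPI anchor genes did not move as far: 26 of 27 were measured, 0 were called, and their changes ran from -0.12 to 0.23 in islets and from -0.45 to 0.32 in grafts. Pigc, Pigh and Pigp form an enzyme with Piga. Pigh averaged 6.58 in islets P12.5 and 6.55 in islets NP (adjusted p = 0.944, limma), and 6.17 in grafts P12.5 and 6.53 in grafts NP, a difference of -0.37 ± 0.12 (adjusted p = 0.0656, limma). Pigc differed by 0.05 in islets (adjusted p = 0.940, limma) and by -0.25 in grafts (adjusted p = 0.0537, limma). Pigp differed by -0.02 in islets (adjusted p = 0.944, limma) and by -0.07 in grafts (adjusted p = 0.540, limma).

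Sox4 and Usp51 were lower at P12.5 mainly in islets. Sox4 is a transcription factor that the developing mouse pancreas needs to form endocrine cells. In islets its levels were 7.2, 7.4, 7.2 and 7.1 at P12.5, against 8.0, 8.3, 8.5 and 8.1 in NP. Female grafts gave 6.9, 7.5 and 7.3 at P12.5, against 7.3, 7.8 and 7.8 in NP. In male grafts it was 7.2 on all 3 arrays at P12.5, against 7.5 on all 3 in NP. Islets were clearly apart, female grafts overlapped, and male grafts were apart by 0.3. The changes were -1.0 ± 0.12 in islets, which is 2.0-fold higher in NP, and -0.40 ± 0.16 in female and -0.30 ± 0.16 in male grafts. The female graft value was -0.23 without P12.5 array 1. The 3 P12.5 groups had nearly the same mean, from 7.20 to 7.23, and the groups differed mainly in NP, with 8.23 in islets, 7.63 in female grafts and 7.50 in male grafts. Islets NP was the only group apart from its neighbour in this order by more than the larger SD. Of the 19 other SOX genes all 19 were measured and 0 were called. Sox11 and Sox12, which form the SoxC group with Sox4, differed in islets by -0.22 (adjusted p = 0.430, limma) and 0.10 (adjusted p = 0.764, limma). In grafts they differed by 0.02 (adjusted p = 0.937, limma) and 0.15 (adjusted p = 0.256, limma).

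Usp51 encodes a deubiquitinase that in human cells removes ubiquitin from histones. On the islet arrays it was 6.2, 6.1, 6.2 and 6.1 at P12.5, against 6.9, 6.9, 7.6 and 7.1 in NP. Female grafts had 6.4, 6.6 and 5.6 at P12.5, against 6.0, 6.5 and 7.0 in NP. Male grafts had 6.1, 5.9 and 5.5 at P12.5, against 5.6, 6.3 and 6.0 in NP. Only the islets were apart, and in the grafts of both donor sexes the groups overlapped. The change in islets was -0.98 ± 0.15. In grafts it was -0.30 ± 0.31 for female and -0.13 ± 0.31 for male donors, within the SE in both, and without array 3 of the P12.5 grafts it was 0 for female and 0.03 for male donors. Leaving out any 1 array gave -0.55 (without NP array 1) to 0 for female donors, and -0.32 (without NP array 1) to 0.03 (without P12.5 array 3 or NP array 2) for male donors. Its graft means, 5.83 to 6.50, were within the larger SD of their neighbours, and islets NP at 7.13 stood above them. Of 18 histone ubiquitin genes 17 were measured and 0 were called. Usp22 and Usp27x are its close relatives and act on histones as well. Usp22 differed by 0.25 ± 0.08 in islets (adjusted p = 0.211, limma) and 0.20 ± 0.08 in grafts (adjusted p = 0.119, limma). Usp27x, the X-linked relative, differed by -0.17 ± 0.07 in islets (adjusted p = 0.384, limma) and -0.23 ± 0.08 in grafts (adjusted p = 0.0702, limma).

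**Figure D2:**
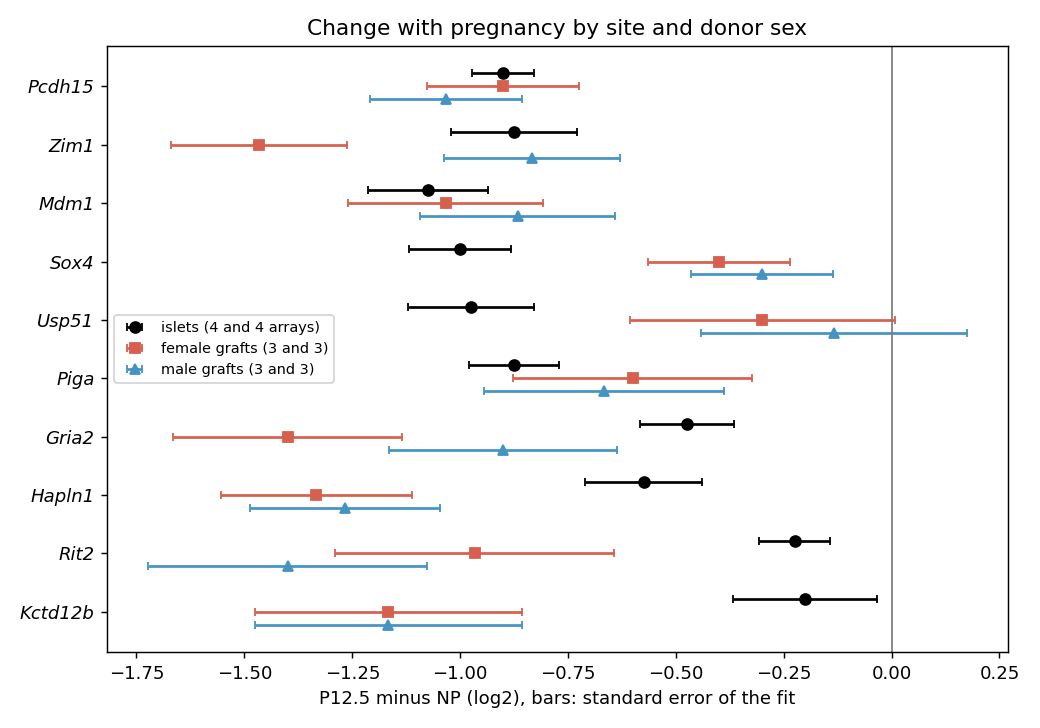
Change with pregnancy of each gene (x axis, P12.5 minus NP, log2) in islets (black circles, 4 and 4 arrays), female grafts (red squares, 3 and 3) and male grafts (blue triangles, 3 and 3). Bars are the standard error of the fit. Sox4 and Usp51 lay near -1 in islets and between -0.40 and -0.13 in grafts, while Rit2 and Kctd12b lay near -0.2 in islets and between -0.97 and -1.40 in grafts.

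Gria2, Hapln1, Rit2 and Kctd12b were lower at P12.5 mainly in grafts, and in the grafts of both donor sexes. Gria2 encodes GluA2, the subunit that keeps calcium out of AMPA-type glutamate receptors. The islet levels were 6.8, 6.8, 6.9 and 6.9 at P12.5, against 7.4, 7.6, 7.2 and 7.1 in NP. Gria2 in female grafts was 6.5, 6.6 and 5.8 at P12.5, against 7.6, 7.9 and 7.6 in NP. In male grafts it was 6.5, 6.4 and 6.3 at P12.5, against 6.7, 7.4 and 7.8 in NP. No setting overlapped, though male graft NP array 1 came within 0.2 of the P12.5 arrays. The changes were -0.48 ± 0.11 in islets, -1.40 ± 0.26 in female grafts and -0.90 ± 0.26 in male grafts, and without array 3 of the P12.5 grafts -1.15 for female and -0.85 for male donors.

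Of the other glutamate receptor genes 27 of 29 were measured and 0 were called. Gria3, a further AMPA receptor subunit, averaged 7.63 in grafts P12.5 and 8.17 in grafts NP and passed the test without reaching the fold of 1.5 (-0.53 ± 0.10, adjusted p = 0.00882, limma). In islets Gria3 averaged 7.50 at P12.5 and 7.93 in NP, a difference of -0.43 ± 0.12 (adjusted p = 0.179, limma). Other listed genes passed in grafts below the fold of 1.5 in the other direction. Cnih3 was higher there by 0.40 (adjusted p = 0.0211, limma). Grik3 was higher by 0.38 (adjusted p = 0.0330, limma) and Cacng5 by 0.38 (adjusted p = 0.0448, limma). None of these genes passed in islets. Gria1 differed by 0.03 in islets (adjusted p = 0.945, limma) and 0.10 in grafts (adjusted p = 0.326, limma), and Gria4 by -0.05 in islets (adjusted p = 0.879, limma) and -0.15 in grafts (adjusted p = 0.618, limma).

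Hapln1 encodes the link protein that fastens proteoglycans to hyaluronan in the extracellular matrix. With both donor sexes together its change in grafts, -1.30 ± 0.16, was the largest of the 10 genes, while Zim1 and Gria2 changed more in female grafts and Rit2 in male grafts. Islets read 6.8, 6.4, 6.4 and 6.6 at P12.5, against 7.3, 7.1, 7.3 and 6.8 in NP. Hapln1 in female grafts read 6.2, 6.1 and 5.7 at P12.5, against 7.1, 7.5 and 7.4 in NP. Male grafts read 6.0, 6.1 and 5.8 at P12.5, against 6.7, 7.4 and 7.6 in NP. The islet groups touched at 6.8, and the graft groups were at least 0.6 apart within a donor sex. The changes were -0.57 ± 0.14 in islets, -1.33 ± 0.22 in female grafts and -1.27 ± 0.22 in male grafts, and without array 3 of the P12.5 grafts -1.18 for both donor sexes. In order of means, both P12.5 graft groups (5.97 and 6.0) came first, then islets P12.5 (6.55), and the 3 NP groups followed between 7.13 and 7.33 within their SD.

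The hyaluronan matrix list, 17 of 18 measured, held called genes in both directions. Hapln4, a link protein of the same family, averaged 9.28 in islets P12.5 and 8.65 in islets NP and was higher by 0.62 ± 0.11 (adjusted p = 0.0276, limma). Hapln4 in grafts averaged 8.95 at P12.5 and 8.68 in NP (adjusted p = 0.255, limma). Hmmr, a hyaluronan receptor that also acts on the mitotic spindle, averaged 4.75 in islets P12.5 and 4.05 in islets NP, higher by 0.70 ± 0.08 (adjusted p = 0.00342, limma). The NP level of Hmmr lay below the lower quartile of every array (4.7 to 4.9). Tnr, the matrix glycoprotein tenascin R, was lower in grafts, at 8.15 in P12.5 and 8.93 in NP (-0.78 ± 0.18, adjusted p = 0.0213, limma). Tnr also passed the test in islets, at 8.45 in P12.5 and 9.03 in NP, with a difference just under the fold of 1.5 (-0.57 ± 0.08, adjusted p = 0.00903, limma). Of the listed proteoglycans, Acan and Vcan did not pass. Acan differed by 0.05 in islets (adjusted p = 0.944, limma) and 0.20 in grafts (adjusted p = 0.213, limma). Vcan differed by -0.10 in islets (adjusted p = 0.676, limma) and -0.07 in grafts (adjusted p = 0.742, limma). Bcan, a further proteoglycan, differed by -0.025 in islets (adjusted p = 0.944, limma). In grafts Bcan was higher by 0.37 (adjusted p = 0.0202, limma), which passed below the fold of 1.5. Below that fold in grafts, Hmmr was also higher, by 0.40 (adjusted p = 0.0189, limma). Cd44 changed there by -0.55 (adjusted p = 0.0251, limma), also below the fold.

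Rit2 encodes a RAS-like GTPase found mainly in neurons. In islets it was 6.6, 6.6, 6.8 and 6.8 at P12.5, against 6.9, 7.0, 7.0 and 6.8 in NP. Female grafts stood at 6.2, 6.7 and 5.8 at P12.5, against 6.9, 7.1 and 7.6 in NP. Male grafts stood at 6.0, 6.0 and 5.0 at P12.5, against 6.7, 7.5 and 7.0 in NP. The islet groups met at 6.8 and each donor sex was apart in grafts. The 5.0 of male graft P12.5 array 3 was the lowest value of any of the 10 genes. The changes were -0.22 ± 0.08 in islets, -0.97 ± 0.32 in female grafts and -1.40 ± 0.32 in male grafts, and without array 3 of the P12.5 grafts -0.75 for female and -1.07 for male donors. Of the RAS-like GTPases 26 of 29 were measured. Rasd1, a RAS-like gene induced by glucocorticoids, was called lower in grafts, at 7.07 in P12.5 and 7.70 in NP (-0.63 ± 0.15, adjusted p = 0.0246, limma). In islets Rasd1 averaged 7.58 at P12.5 and 8.18 in NP (-0.60 ± 0.19, adjusted p = 0.211, limma). Rit1, the close relative of Rit2, differed by 0.20 in islets (adjusted p = 0.350, limma) and 0.08 in grafts (adjusted p = 0.426, limma). Rras2 differed by 0.10 in islets (adjusted p = 0.740, limma) and 0.30 in grafts (adjusted p = 0.102, limma).

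Kctd12b is a relative of Kctd12, an auxiliary subunit of the GABA-B receptor. On islet arrays it read 7.3, 7.3, 7.6 and 7.3 at P12.5, against 7.5, 7.9, 7.8 and 7.1 in NP. Kctd12b in female grafts was 7.0, 7.3 and 6.1 at P12.5, against 7.9, 7.9 and 8.1 in NP. Male grafts showed 6.7, 7.0 and 6.2 at P12.5, against 7.3, 8.0 and 8.1 in NP. The islet groups overlapped over their whole P12.5 range. In grafts each donor sex was apart, and female P12.5 array 2 met male NP array 1 at 7.3. The changes were -0.20 ± 0.17 in islets and -1.17 ± 0.31 in the grafts of each donor sex. Leaving out single NP arrays moved the islet value, to -0.09 without array 2, -0.12 without array 3 and -0.36 without array 4. In grafts the changes without array 3 of the P12.5 grafts were -0.82 for female and -0.95 for male donors. The GABA-B and KCTD list, 24 of 26 measured, held 1 called gene in each contrast, and it was higher. Gabbr2, a subunit of the GABA-B receptor itself, averaged 9.08 in islets P12.5 and 8.15 in islets NP (0.93 ± 0.10, adjusted p = 0.00237, limma). In grafts Gabbr2 averaged 9.25 at P12.5 and 8.03 in NP (1.22 ± 0.19, adjusted p = 0.00490, limma). Gabbr1, the other receptor subunit, differed by -0.12 in islets (adjusted p = 0.805, limma) and 0.15 in grafts (adjusted p = 0.296, limma). Kctd12 differed by -0.15 in islets (adjusted p = 0.515, limma) and 0.25 in grafts (adjusted p = 0.187, limma), and Kctd16 by -0.10 (adjusted p = 0.740, limma) and -0.13 (adjusted p = 0.255, limma). Among the uncalled genes of this list, only Kctd18 and Kctd20 passed the test in grafts, both lower and below the fold needed for a call. Kctd18 differed by 0.05 in islets (adjusted p = 0.885, limma) and -0.45 in grafts (adjusted p = 0.00578, limma). Kctd20 differed by -0.15 in islets (adjusted p = 0.591, limma) and -0.43 in grafts (adjusted p = 0.00675, limma).

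Over the 11 lists of relatives and partners together, 217 of 236 genes were measured. In islets 3 were called higher and 0 lower by limma, and in grafts 2 were called higher and 2 lower, against the shares of all genes given above, while 41 of the 217 in islets (18.9%) and 69 in grafts (31.8%) had an unadjusted p under 0.05, against 13.3% and 30.0% of all genes. The median change of the 217 genes was 0 in islets and 0.02 in grafts, the same as over all genes. Some listed genes, among them Plk4, Sox11, Acan and, in islets, Gria4, stood near the lower quartile of the arrays (4.7 to 4.9). For genes at such levels, the lack of a call does not show that an expressed gene stayed unchanged. The most negative change of a listed relative was -0.62 in islets (Nnat, adjusted p = 0.268, limma) and -0.78 in grafts (Tnr).

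**Figure D3:**
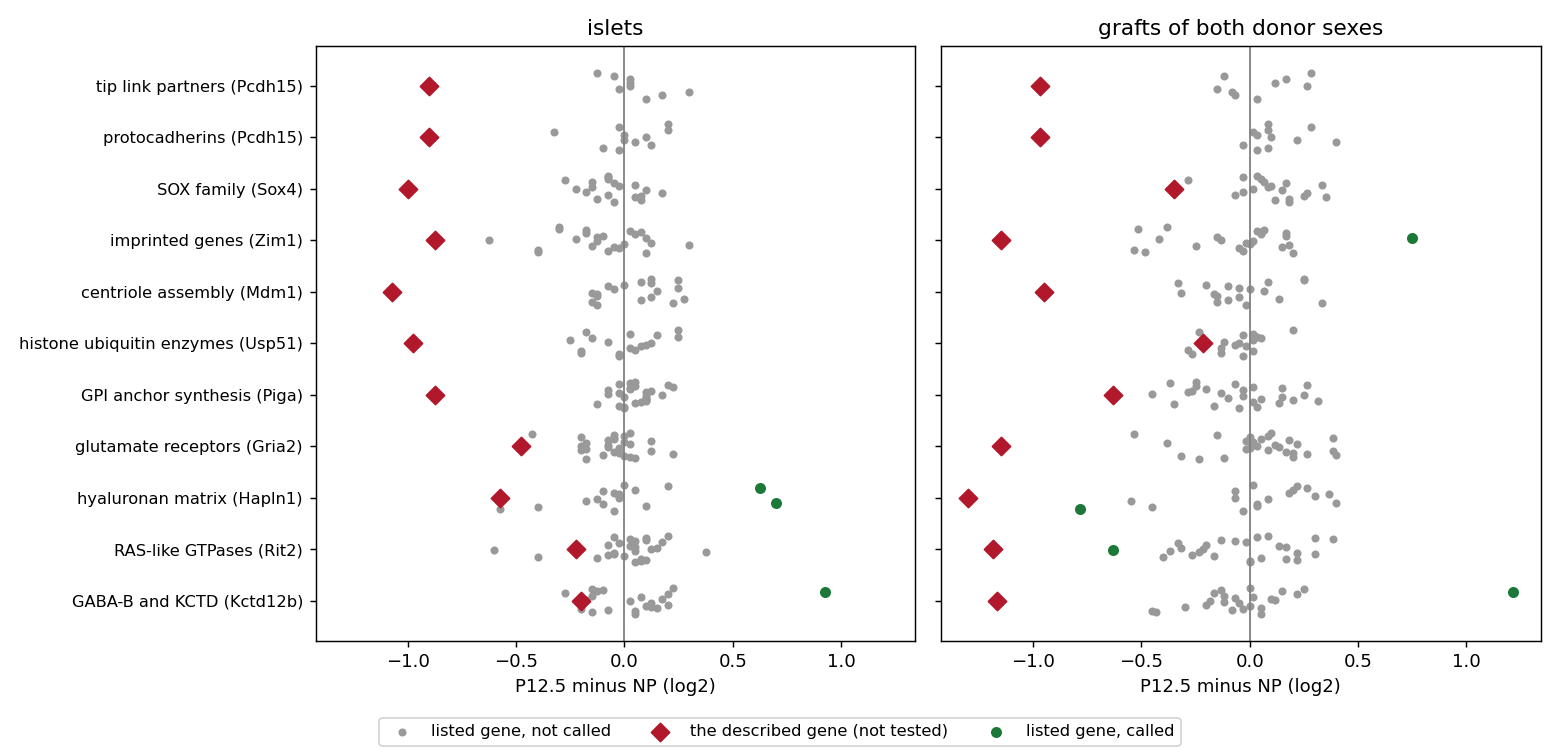
Change with pregnancy (x axis, P12.5 minus NP, log2) of the measured genes in 11 lists of relatives and partners, in islets (left) and in grafts of both donor sexes (right). Red diamonds are the described genes, which were chosen on this change and not tested, grey points are listed genes that were not called and green points are those called at an adjusted p under 0.05 and a fold of at least 1.5. Most listed genes lay within 0.4 of 0, and Gabbr2 was the highest green point in both panels.

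The grafts of male and female donors were then set beside each other. Averaged over both host states, none of the 10 genes was called between male and female grafts, where 0.0150% of all genes were called (3 genes, the Y-linked Kdm5d, Eif2s3y and Uty). The differences, male minus female, ran from -0.45 ± 0.22 for Usp51 to -0.02 ± 0.14 for Zim1, with a fold below 1.5 for each and adjusted p from 0.989 to 0.992 (limma), and 10 of 10 were below 0, as were 52.7% of all genes. Unadjusted p-values of the 10 genes were 0.0621 (Usp51, limma) and higher, and no sex difference was detected for these genes. Usp51 averaged 5.9 in male and 6.35 in female grafts. Of the X-linked genes, Piga averaged 6.90 in male and 7.10 in female grafts (-0.20 ± 0.20) and Kctd12b 7.22 in male and 7.38 in female grafts (-0.17 ± 0.22). Within a host state, male minus female, Zim1 was at 0.30 at P12.5 and -0.33 in NP, and Gria2 at 0.10 at P12.5 and -0.40 in NP. The largest differences were in Rit2, -0.57 at P12.5 and -0.13 in NP, and Usp51, -0.37 at P12.5 and -0.53 in NP. Without female graft P12.5 array 3 the P12.5 values were 0.03 for Zim1, -0.15 for Gria2, -0.78 for Rit2 and -0.67 for Usp51. Without array 3 of both donor sexes they were 0 for Zim1, -0.10 for Gria2, -0.45 for Rit2 and -0.50 for Usp51. Differences within a host state were not tested. The immune list, for which 12 of 14 genes were measured, averaged 6.94 to 7.27 in male and 6.69 to 7.55 in female grafts P12.5, and 7.53 to 8.22 in male and 7.03 to 7.36 in female grafts NP, and its part in these values was not tested.

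Female grafts were compared with female islets, again averaged over both states. None of the 10 genes was called, against 6.61% of all genes (1318 genes). Mdm1 and Sox4 passed the test below the fold of 1.5. Mdm1 averaged 8.08 in female grafts and 8.51 in islets (-0.43 ± 0.14, adjusted p = 0.0250, limma), and Sox4 averaged 7.43 in female grafts and 7.73 in islets (-0.29 ± 0.10, adjusted p = 0.0390, limma). For Mdm1 the difference was alike in both states, -0.41 at P12.5 and -0.45 in NP. For Sox4 it was 0.01 at P12.5 and -0.59 in NP. The other 8 genes differed by -0.29 (Usp51) to 0.04 (Pcdh15) with adjusted p from 0.230 to 0.959 (limma). For the 4 genes lower mainly in grafts, the values of the 2 states lay on opposite sides of 0, which restates the larger fall in grafts by which they were grouped and was not tested. Kctd12b was at -0.58 at P12.5 and 0.39 in NP, Gria2 at -0.55 and 0.38, Hapln1 at -0.55 and 0.21, and Rit2 at -0.47 and 0.28, female grafts minus islets. Without female graft P12.5 array 3, the P12.5 values were -0.23 for Kctd12b, -0.30 for Gria2, -0.40 for Hapln1 and -0.25 for Rit2. Over all genes the median of this comparison was -0.07, and that of the 10 genes -0.11.

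**Figure D4:**
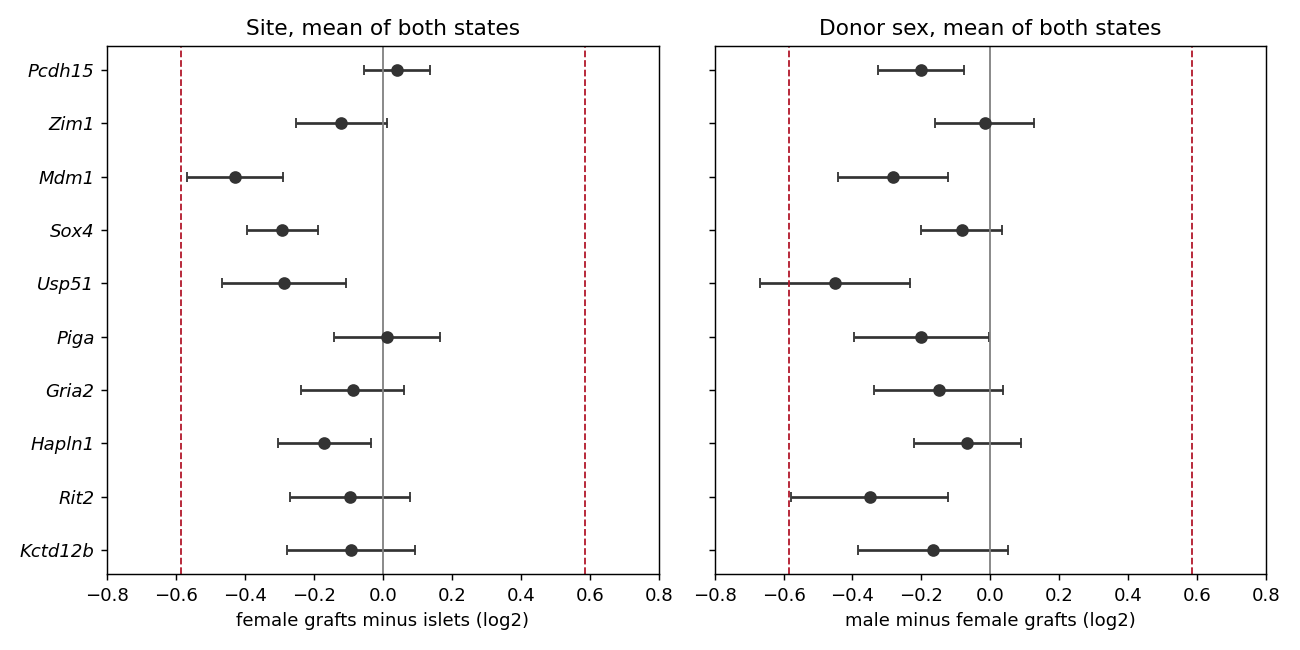
Difference of each gene (x axis, log2) between female grafts and islets (left, 6 and 8 arrays) and between male and female grafts (right, 6 and 6 arrays), averaged over P12.5 and NP. Points are differences, bars are the standard error of the fit, and dashed red lines mark the fold of 1.5. All points lay inside the lines, with Mdm1 lowest on the left (-0.43) and Usp51 lowest on the right (-0.45).

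The spread among graft arrays was followed over the mean of the 10 genes. That mean was 6.78, 6.95 and 6.35 in female grafts P12.5, against 7.35, 7.70 and 7.90 in female grafts NP. Male grafts had 6.63, 6.67 and 6.34 at P12.5, against 7.08, 7.54 and 7.59 in NP. Islets had 6.94, 6.94, 7.00 and 6.98 at P12.5, against 7.66, 7.75, 7.76 and 7.56 in NP. The lowest array of each NP graft group was array 1, and the lowest of each P12.5 graft group array 3. Female graft NP array 1 had the highest kidney mean of its group, 8.54, and male graft NP array 1 the lowest of its group, 6.39. With the kidney mean as a covariate, the changes of the 10 genes in grafts ran from -1.25 (Hapln1) to -0.23 (Usp51), and that of Kctd12b was -1.22. Without array 3 of the P12.5 grafts they ran from -1.18 (Hapln1) to 0.02 (Usp51), with -1.03 for Zim1, -1.0 for Gria2, -0.91 for Rit2, -0.88 for Kctd12b, -0.85 for Pcdh15, -0.84 for Mdm1, -0.64 for Piga and -0.37 for Sox4.

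**Figure D5:**
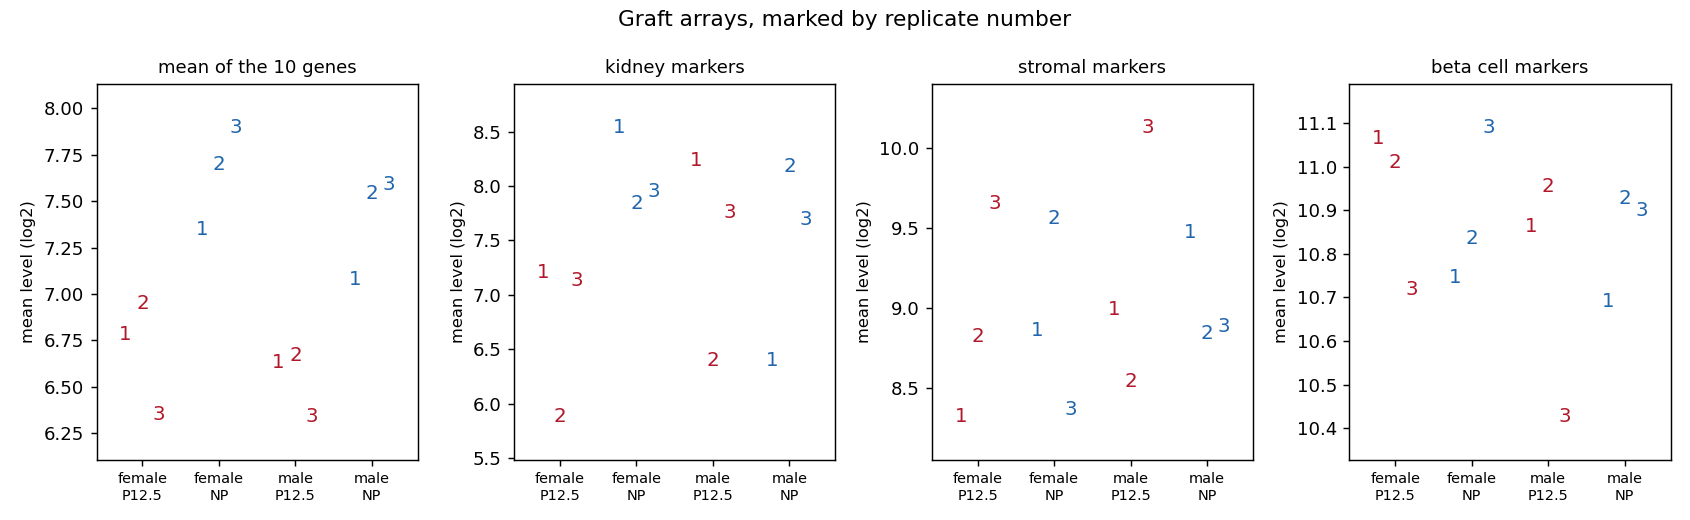
Mean level (y axes, log2) of the 10 genes and of the kidney, stromal and beta cell marker lists on the 12 graft arrays, by donor sex and host state, with P12.5 in red and NP in blue. Each digit is 1 array and gives its replicate number, which the labels do not link across groups. Array 3 of both P12.5 groups was lowest for the 10 genes (6.35 and 6.34) and for the beta cell list, and highest for the stromal list.

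The genes whose pattern over the 6 group means came nearest to each of the 10 were found by the root mean square difference of centred means, as a description. The closest match was Akr1c12, an aldo-keto reductase, to Kctd12b, at 0.03 where Kctd12b itself ranged over 1.33. Akr1c12 was also nearest to Hapln1 (0.15) and Rit2 (0.15), and it changed by -0.12 in islets, -1.20 in female grafts and -1.13 in male grafts. Zkscan16, a zinc finger gene, was second for Kctd12b (0.09) and Rit2 (0.16), and Glul, which encodes glutamine synthetase, was second for Hapln1 (0.17). A1cf, a partner of the RNA-editing enzyme Apobec1, was nearest to Gria2 (0.08) and to Zim1 (0.19). Defb1, a defensin, was second for Gria2 (0.12) and Adgb, androglobin, for Zim1 (0.20). Tnr was nearest to Pcdh15 (0.14) and second for Piga (0.12), for which Tm4sf4 was nearest (0.12). Six4, a homeobox gene, was second for Pcdh15 (0.15) and Mdm1 (0.17), and Tat, tyrosine aminotransferase, was nearest to Mdm1 (0.14) with changes of -0.70 in islets, -0.87 in female grafts and -0.93 in male grafts. Sox4 was nearest to E230001N04Rik (0.13) and to Slc25a32 (0.14), a mitochondrial folate carrier. Usp51 was nearest to Bambi (0.15), an inhibitor of TGF-beta signalling, and Fkbp5 (0.16), a glucocorticoid-induced co-chaperone that changed by -0.82 in islets, -0.60 in female grafts and -0.57 in male grafts.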

How the data were processed

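Total RNA of 20 samples was hybridised by the authors to Affymetrix mouse gene ST arrays, 1 array a sample. The authors preprocessed the raw scans with robust multichip analysis in aroma.affymetrix, which adjusts the background and quantile normalizes the arrays together, and deposited log2 expression values for 35511 probe sets, given to 1 decimal, so that steps of 0.1 are the finest that can be read. Array medians were 5.9 to 6.0 and lower quartiles 4.7 to 4.9, and replicates of a group correlated at 0.971 to 0.989. The highest value was 13.4 on islets NP array 1 and 14.4 to 14.6 on the other arrays. Islets NP array 1 also had the lowest beta cell list mean of the islet arrays, 10.8. No pair of arrays was a duplicate. Detection calls were not used here, and the number of arrays limits the precision.

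Probe sets were named from the platform annotation: 21789 had 1 symbol, 1621 several and 12101 none, and the probe set with the highest mean stood for each of 19938 genes. Tests used limma 3.58.1 in R 4.3.3 (lmFit, eBayes) with Benjamini-Hochberg adjustment over all probe sets, on the 8 islet arrays, the 12 graft arrays or all 20 arrays (grafts against islets). A gene was called at an adjusted p under 0.05 and a fold of at least 1.5, the thresholds of the study. Scripts were tested on simulated data. The 10 genes and all lists were chosen with earlier results of these data known. Named were the 10 genes, listed relatives that were called, at most 3 relatives or partners of each gene whatever their values, and the 2 genes nearest in pattern. Nnat, Bcan, Cd44, Kctd18, Kctd20, Cnih3, Grik3 and Cacng5 were named after their values were seen. Relatives that passed the test below the fold of 1.5 are named only in part. The labels state no pairing by replicate number, and the main tests used none. Same-numbered arrays of different groups deviated together at correlations of -0.24 to 0.37, with the highest between male and female grafts P12.5. Arrays with different numbers were not compared in this way, so a link or a batch shared by same-numbered arrays was not tested. Alternatives were other scalings, a filter on low values, an intensity trend, the replicate block, all arrays in 1 fit, the kidney list as a covariate, other probe sets and leaving out each array; leaving out array 3 of the P12.5 graft groups was chosen after seeing the data.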

Additional observations from a re-analysis of the deposited data

Results flagged for a closer look

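In a group of 4 islet arrays, a single array can lie far from 3 that agree. Among the 20 such groups of the 10 genes, 3 had an array whose gap to its nearest neighbour was the whole range of the group (a ratio of 1). Ties in rounded values can give such a ratio. How often they do so by chance was not worked out, so nothing is read from this count. All 3 were in islets P12.5. Pcdh15 was 6.5 on array 3 and 6.4 on the other 3 arrays, a ratio of 1. Zim1 was 7.6 on array 1 and 7.8 on the other 3, a ratio of 1. Kctd12b was 7.6 on array 3 and 7.3 on the other 3, a ratio of 1. The values carry 1 decimal, and the gaps are 1 to 3 of the smallest steps they can show.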

How the results depend on the processing

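The pregnancy changes of the 10 genes in islets, grafts and the grafts of each sex, 40 values, were recomputed under 604 alternatives, and 598 of these were below 0. The exceptions were all in Usp51 in grafts. The genes were chosen for their fall, so most signs were set by the choice. The filter on low values, the intensity trend, the replicate block and the fit of all arrays also leave the estimated change as it was. Nothing is therefore read from the count of 598. Without array 3 of both P12.5 groups, chosen after seeing the data, Usp51 was at 0.0167 in grafts and 0.0333 in male grafts. Leaving out single arrays gave Usp51 -0.32 to 0.0333 in male grafts. The mean of both probe sets of Pcdh15 gave -0.51 in islets, -0.39 in grafts, -0.38 in female grafts and -0.40 in male grafts.

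The counts of probe sets called were 257 in islets, 1408 in grafts, 2805 for female grafts against islets and 4 for male against female grafts. With the replicate block they were 132, 1287, 2475 and 4. With the filter on low values, which tests fewer probe sets, they were 205, 787, 1513 and 1, and 647 in grafts once the kidney list was a covariate. Leaving out 1 array gave 184 to 299, 947 to 1724, 2560 to 2905 and 4 to 49 probe sets, and the 49 came without male graft P12.5 array 2. In grafts the main setting called 699 probe sets higher and 709 lower (49.6% higher), and with array medians subtracted 525 higher and 1077 lower (32.8% higher). The cause of these shifts was not tested.

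No alternative called any of the 10 genes between sites or donor sexes. Signs near 0 turned. For female grafts against islets, Piga was -0.0248 after renewed quantile normalization, -0.0875 with grafts of both donor sexes and -0.11 to 0.21 leaving out 1 array. Pcdh15 was -0.0583 with both donor sexes, -0.0979 as the mean of its probe sets and -0.0417 to 0.13 leaving out 1 array. Leaving out 1 array also gave Zim1 -0.21 to 0.0125, Gria2 -0.16 to 0.0375, Rit2 -0.21 to 0.0125 and Kctd12b -0.22 to 0.0833, with the highest value of each without female graft P12.5 array 3. For male against female grafts, leaving out 1 array gave Zim1 -0.15 to 0.075 and Hapln1 -0.16 to 0.0667. The adjusted p of Mdm1 between female grafts and islets was 0.000988 to 0.0750 over 20 alternatives and that of Sox4 0.00585 to 0.122 (limma).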
